A study of Mus musculus with 4 samples.

Results

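Peaks of the N6-methyladenosine (m6A) readers with a YTH domain and of the m6A demethylases were followed in wild-type and Mettl5-deficient embryonic stem cells of the mouse. The 7 genes were taken by name from the gene symbol of each listed peak: Ythdc1, Ythdc2, Ythdf1, Ythdf2, Ythdf3, Fto and Alkbh5. Of 9949 genes with a peak in any library, 2 were among them, Ythdc1 and Ythdf3, with 8 of 46417 peaks and 4 of 15487 joined regions. All cells were embryonic stem cells of the strain C57BL/6N, either wild type (2 libraries) or Mettl5-/- (2 libraries, called knockout 1 and knockout 2). The wild-type libraries are numbered in the order of their records, since their titles (mESCs_Ctr and mESCs_WT) carry no number. RNA was fragmented, pulled down with an m6A antibody and sequenced (MeRIP-seq), and the authors listed peaks for each library on its own. The labels do not give separate cultures, knockout clones or pooling for any library, so the spread between libraries of a genotype may be technical. They also describe differentiation steps, but no library is labelled as differentiated.

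m6A is written on mRNA by the Mettl3-Mettl14 complex and is bound by proteins that carry a YTH domain, a fold with a pocket for the methylated base. Ythdc1 is the nuclear YTH reader, with known roles in splicing, export and the control of chromatin-associated RNA in embryonic stem cells. Ythdf1, Ythdf2 and Ythdf3 are cytoplasmic paralogs, of which Ythdf2 is known for recruiting deadenylases to methylated mRNA, and Ythdc2 is a helicase needed in meiosis. Fto and Alkbh5 are dioxygenases of the AlkB family that remove the methyl group. Mettl5 itself methylates 18S ribosomal RNA and is not a writer of mRNA.

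The lists held between 10821 and 12699 peaks, and Mettl5 had no peak in any of the 4, so they did not check the genotype. Strength is given as the percentile of a peak's p-value within its own list, 100 being the strongest, and fold is the authors' enrichment over a background that the lists do not name. Both describe the place of a peak within its list. Percentiles are set side by side, or averaged over the lists as a summary, and a difference between lists of unequal length is not read as a change in methylation. Read depth is unknown here, and the lack of a peak is no evidence of an unmethylated transcript. RNA level was not analysed, and in such bulk samples fewer cells of a type and less RNA per cell cannot be told apart. Of 8 stem cell markers, 4 had a peak in all libraries: Sox2, Klf4 and Esrrb (mean percentiles of 97.6 to 99.3) and Pou5f1 (42.1). Tfcp2l1 had one in knockout 1 alone, and Nanog, Zfp42 and Dppa5a had none among the peaks analysed. Of 4 feeder fibroblast markers 0 had a peak, of 4 mesoderm and endoderm markers 1 (Gata6, in 2 libraries), and of 4 neural markers 4, with Sox1 and Nes in all libraries. Of the protein-coding symbols of RefSeq, 37.7% had a peak in at least 1 library. Among all genes with a peak the share with one in all libraries was 57.1%. With 4 to 8 markers a group, these counts do not tell the cell type.

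Ythdc1 was the 1 gene of the 7 with a peak in all 4 libraries, Ythdf3 had a peak in wild type 1 alone, and 5 had none among the peaks analysed. Of all genes with a peak, 57.1% had one in every library, while 17.0% were limited to a single library. No gene of the 7 followed the genotype: 0 had peaks in both wild-type and neither knockout library, where 1.56% of all genes did, and 0 the reverse, where 2.27% did. The first count rests on wild type 2, since without that library Ythdf3 alone would be counted as found in wild type and not in the knockout. The 2 shares are over genes with a peak, and 2 of the 7 had one. With so few genes either count would be near 0 at such shares, so neither describes the 7 genes. With 2 against 2 libraries the smallest two-sided exact permutation p is 0.333, so the genotypes were described and not tested.

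Ythdc1 carried a strong, broad peak in the same part of its transcript in every library. This region (region 2, counted from the gene's 5′ end) lay on the plus strand of chromosome 5, positions 86826746 to 86829625 of mm10. The RefSeq gene model spans positions 86803980 to 86836659, so the region began 22766 bases downstream of the gene's first base and ended 7034 bases before its last. In wild type 1 and knockout 1 the peak had the same blocks, 66 bases and then 1671 bases, with a gap of 1143 bases between them. In knockout 2 the first block was 36 bases and the second again 1671 bases. In wild type 2 the peak had 1 block of 929 bases, the 3′ part of the long block, and ended at the same base as the other 3. Those 929 bases were common to all libraries, out of 1737 in the union.

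**Figure D1:**
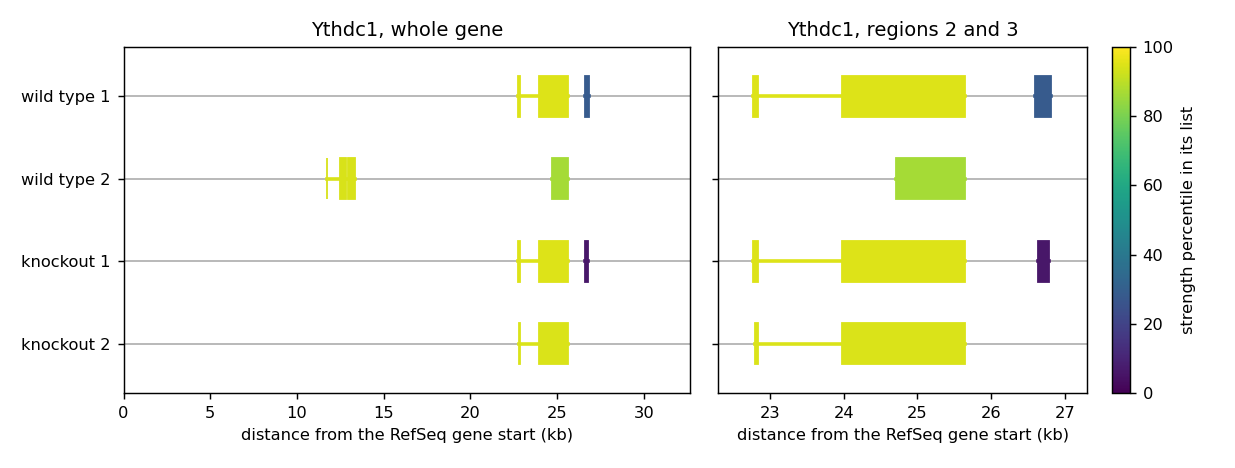
Map of the Ythdc1 peaks in each library, with the distance from the RefSeq gene start in kb on the horizontal axis, the whole gene at the left and an enlarged part at the right. Boxes are the exon blocks of a peak, thin coloured lines the gaps between its blocks, grey lines the gene, and colours the strength percentile in the list. Region 2 appears in all 4 libraries, with 929 bases in wild type 2 against 1707 to 1737 in the others.

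The authors' fold of the region 2 peak was 502 in wild type 1, 138 in wild type 2, 292 in knockout 1 and 92.3 in knockout 2. Its log10 p-value was -467, -202, -465 and -622 in the same order, which put it at strength percentiles of 94.6, 86.5, 94.8 and 94.3. By fold its percentile was 95.1, 79.0, 91.2 and 75.7. The peak was thus well above the middle of every list by either measure. Averaged over the libraries, the strength percentile of region 2 was 92.5, at or below that of 633 of the 6589 regions found in all libraries (itself included), whose median was 62.3. Regions found in all libraries made up 42.5% of all regions.

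Region 2 was also long for its class. The authors gave all 7 Ythdc1 peaks the class exon, with no finer part of the transcript, a class that held 20.9% to 22.7% of the peaks of a list. Among the exon-class peaks of protein-coding genes, 36 of 1281 in wild type 1, 41 of 1391 in knockout 1 and 25 of 1154 in knockout 2 covered at least as many bases as that of Ythdc1, which is counted in. In wild type 2, where it was shortest, 152 of 1224 did. As long and as strong at once were 19, 18 and 18 peaks in wild type 1, knockout 1 and knockout 2, and 96 in wild type 2. The median peak of a list covered 331 to 360 bases.

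Wild type 2 had another strong Ythdc1 peak, which was listed in no other library. Regions of a single library made up 28.3% of all regions. This region 1 lay at positions 86815695 to 86817320 of chromosome 5, between 11715 and 13340 bases from the gene start. It had 3 blocks of 36, 329 and 414 bases with gaps of 733 and 114 bases. By p-value it was stronger than region 2 of the same library, with a log10 p of -618 and a percentile of 94.0, and it was the best Ythdc1 peak there. By fold it was weak, at 5.47, a percentile of 6.10. Few peaks of the list shared that combination: of the 670 peaks of wild type 2 with a log10 p at least as low, the median fold was 323.5 and 9 had a fold of 5.47 or less. The other 8 were 3 peaks of the nuclear RNA Malat1, 2 of Hnrnpf, and 1 each of the pseudogenes Gm4617 and Gm9800 and of the mitochondrial mt-Nd5. The same limits held 3 of 517 peaks in wild type 1, 0 of 522 in knockout 1 and 5 of 622 in knockout 2. Those of wild type 1 were of Hsp90aa1, Hsp90ab1 and the pseudogene Gm12960. Those of knockout 2 were of Hsp90aa1, Hsp90ab1, Hnrnpu and the mitochondrial mt-Nd5 and mt-Nd6. These genes were looked up after the values were seen. The Ythdc1 RNA level in wild type 2 was not analysed, and its part in this peak was not tested.

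A further, weak region was found in a library of each genotype. Region 3 had a single block of 211 bases in wild type 1, positions 86830583 to 86830793 of chromosome 5, and of 151 bases in knockout 1, positions 86830613 to 86830763. Its fold was 13.7 in wild type 1 and 3.74 in knockout 1. The log10 p-values were -3.52 and -2, at percentiles of 28.5 and 6.16. Regions seen in wild type 1 and knockout 1 alone made up 3.64% of all regions. Knockout 2 therefore had 1 Ythdc1 peak and the other libraries 2 each, where 32.8% to 34.1% of the genes of a list had 2 or more.

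**Figure D2:**
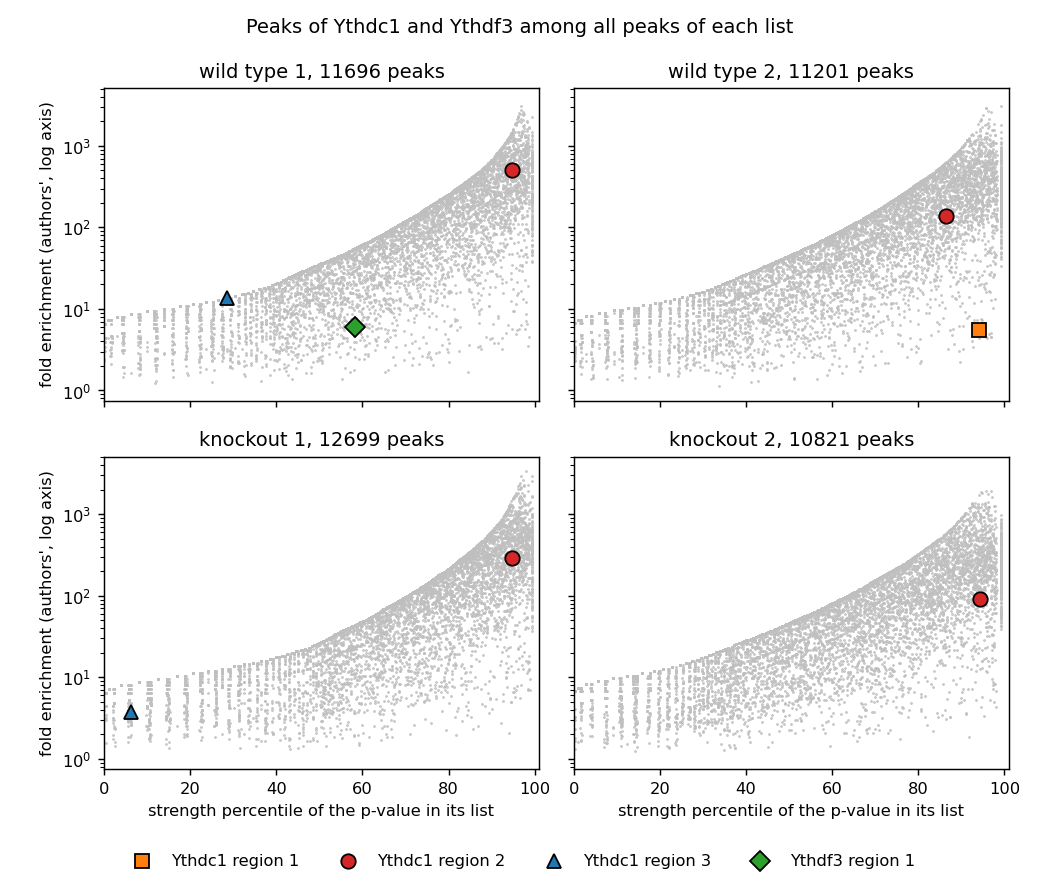
Fold enrichment as the authors list it (vertical, log axis) against the strength percentile of the p-value (horizontal) for every peak of each list, 1 panel per library, grey points. Coloured symbols are the 8 peaks of Ythdc1 and Ythdf3. Region 2 of Ythdc1 lies well above the middle of the list by both measures in all 4 panels. Its fold percentiles run from 75.7 in knockout 2 to 95.1 in wild type 1. Region 1 in wild type 2, at a fold of 5.47, lies far below most peaks of its percentile.

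The extent of the Ythdc1 peaks set wild type 2 apart from the other libraries and did not divide them by genotype. As a measure of overlap in bases, the Jaccard index divides the bases covered in both libraries of a pair by those covered in either. It was 0.969 for wild type 1 with knockout 1, 0.876 for wild type 1 with knockout 2 and 0.904 for the knockout pair. Lower values were found for the wild-type pair (0.341), for wild type 2 with knockout 1 (0.348) and for wild type 2 with knockout 2 (0.374). Over the 5683 genes with a peak in all libraries the median was 0.743 to 0.802 in these 6 pairs, with the wild-type pair the highest. For the wild-type pair 357 of those genes were at or below Ythdc1. With region 2 alone the pairs of wild type 2 gave 0.535 to 0.544, and the other pairs 0.983 to 1. In all, Ythdc1 peaks covered 1948 and 1708 bases in wild type 1 and 2 and 1888 and 1707 in knockout 1 and 2, so the wild-type mean was 1828 ± 170 bases and the knockout mean 1797.5 ± 128 (SD over n = 2 libraries each). That difference was smaller than the spread between libraries of either genotype. For region 2 alone the means were 1333 ± 571 bases in wild type and 1722 ± 21.2 in the knockout. The difference of 389 bases was above the knockout SD and below the wild-type SD, with 929 bases in wild type 2. Peaks of the genes followed here numbered 2.5 ± 0.707 a library in wild type and 1.5 ± 0.707 in the knockout. None of these differences was tested.

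Ythdf3, the cytoplasmic reader that acts with its paralogs in translation and decay of methylated mRNA, had a single peak, in wild type 1. It lay in the 5′ untranslated region on the plus strand of chromosome 3, positions 16183242 to 16183512 of mm10, beginning 94 bases downstream of the first base of the RefSeq gene. It had 1 block of 271 bases, a fold of 6.02 and a p-value of 3.2e-17. By p-value it stood at percentile 58.2 of its list and by fold at 6.14, the list's median fold being 22.4. No peak of any gene overlapped it in the other 3 libraries. Among the 392 genes with a peak in wild type 1 alone, 61 had a best peak at least as strong, Ythdf3 included, and the median percentile of the 392 was 19.4. Of the 543 peaks of the 5′ untranslated region in wild type 1, whose median percentile was 38.9 and median fold 13, 157 had a p-value as small. Of those 543 peaks 14.4% lay in a region of that library alone, against 9.03% of all its peaks.

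The other 5 genes had no peak among those analysed in any library, which includes both demethylases and the readers Ythdf1, Ythdf2 and Ythdc2. Of 21900 protein-coding symbols listed by RefSeq, 37.7% had a peak in at least 1 library. No peak of another gene lay within the RefSeq spans of Ythdc2, Ythdf1, Ythdf2 or Alkbh5. Within the span of Fto, positions 91313367 to 91668433 of chromosome 8, wild type 1 had 1 weak peak on the minus strand, opposite to Fto, of the gene 4831440D22Rik, with a fold of 1.92 and a percentile of 8.28.

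Other genes of the m6A pathway were counted from 4 lists with 47 genes in all. Of these, 34 had a peak in any library, where 37.7% of the protein-coding symbols of RefSeq did. The lists were chosen with earlier results of these data known, so no enrichment is read from this. Of the 34, 21 (61.8%) had a peak in every library, against 57.1% of all genes with a peak. Of the 34 with a peak, 0 were found in both wild-type libraries alone and 0 in both knockout libraries alone; with shares of 1.56% and 2.27% among all genes with a peak, so few genes would be near 0 in either case. The writers (10 genes) had 6 in all libraries: Rbm15 and Rbm15b, which guide the complex to RNA, Virma, Pcif1, which methylates the base next to the cap, Wtap and Mettl14. Mettl16 and Zc3h13 had strong peaks in wild type 1 (percentiles of 99.4 and 98.7) and knockout 2 (95.6 and 99.1) alone. How many of all genes had peaks in that pair of libraries alone was not counted. The catalytic subunit Mettl3 had none among the peaks analysed, nor had Cbll1.

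Readers without a YTH domain (11 genes) had 2 in all libraries, Prrc2a (mean percentile 98.9) and the RNA-stabilising Elavl1 (59.2), and 5 in some. Igf2bp1, Hnrnpc and Hnrnpa2b1 had peaks in every library but wild type 2, a pattern of 3.16% of all genes with a peak. Their best-peak folds were low for Hnrnpc (1.39 to 1.98) and Hnrnpa2b1 (2.06 to 8.68), and 5.7 to 30.8 for Igf2bp1. The median fold of those lists was 19.2 to 24.9. Fxr1 had peaks in wild type 2 (61.2) and knockout 2 (51.3), and Eif3a in wild type 2 alone (98.3). Partners of the YTH readers (19 genes) had 11 in all libraries, among them G3bp1 (97.1), the nonsense-mediated decay helicase Upf1 (95.0), Safb (94.6) and the histone methyltransferase Setdb1 (91.2). The deadenylase subunits Cnot1 and Cnot7 had weaker peaks in 2 libraries each, and the splicing factors Srsf3 and Srsf10 had none among those analysed. Of 7 other AlkB dioxygenases, Alkbh1 (86.4) and Alkbh4 (69.8) had peaks in all libraries, Alkbh8 in 2, Alkbh2 and Alkbh3 in 1 each, and Alkbh6 and Alkbh7 in none of those analysed.

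**Figure D3:**
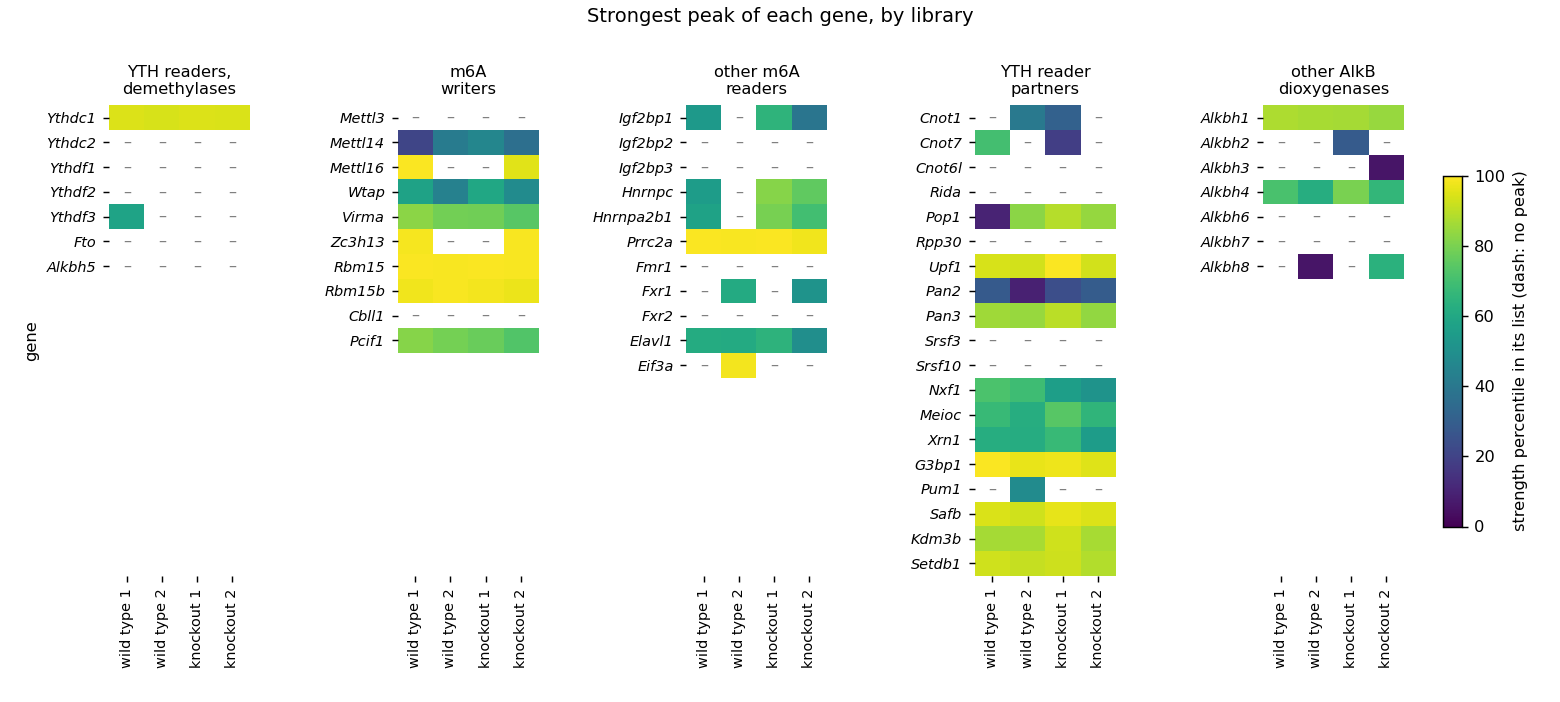
Strength percentile of the strongest peak of each gene (rows) in each library (columns), for the YTH readers and demethylases and the 4 pathway lists; colours run from 0 to 100 and a dash marks a library with no peak. Ythdc1 is filled in all 4 columns, Ythdf3 in wild type 1 alone, and the other 5 genes of the first panel have dashes throughout.

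By the best peak in each library, Ythdc1 had strength percentiles of 94.6, 94.0, 94.8 and 94.3 (wild-type libraries first, then the knockouts), a mean of 94.4 ± 0.330 (SD over n = 4 lists). The best peak was region 2 in 3 libraries and region 1 in wild type 2, so the close values do not stand for a single site. Among the 22 genes of the 5 groups with peaks in all libraries Ythdc1 took place 7, after Rbm15, Prrc2a, Rbm15b, G3bp1, Upf1 and Safb. Upf1, Safb and Ythdc1 were within 0.526 points of each other, less than the range of Safb alone over its libraries (92.9 to 96.1). The median best peak of all genes stood at 59.1 to 59.9. Of the 5683 genes with peaks in all libraries 480 had a mean at or above that of Ythdc1. Of the 120 other genes with the same number of peaks in each library, the closest to Ythdc1 were Tuba1b, a tubulin gene, with a mean absolute difference of 0.605 percentile points over the 4 libraries, and Gm28048, with 0.947. Their best peaks lay in the coding sequence and in the 3′ untranslated region, not in the exon class.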

How the data were processed

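RNA fragments were enriched with an m6A antibody, per the labels' protocols. HISAT2, HOMER and mm10 are named, with no role, per the submitters' processing notes. The sources used here do not give the peak caller, its settings or the input. The authors deposited 1 list per library. Per the file headers, each peak has blocks, a gene, a class, a p-value, the log10 of the p-value and of its adjusted form (held here as a score, not always finite), and a fold enrichment, a ratio.

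Peaks off the reference chromosomes (3 to 6 a list) were left out. Peaks were joined into regions where blocks overlapped by 1 bp or more, on either strand. Percentiles of the p-value were taken within each list. RefSeq spans of GRCm38.p6, the assembly behind mm10, were matched by symbol for 7 of 7 genes. The joining was tested on simulated lists. The genes and lists were chosen with earlier results of these data known. Named were the 7 genes with every peak, Mettl5, list members, and the 2 genes most like Ythdc1 in percentile. Alternatives were other evidence limits, list lengths, overlaps and strength measures, and leaving out each library. No sequence of a peak was analysed here. Python 3.11.15, numpy 2.4.6, pandas 2.3.3 and matplotlib 3.10.9 were used.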

Additional observations from a re-analysis of the deposited data

How the results depend on the processing

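Of 82 values recomputed under 15 alternatives, 76 kept within their limits (counts within 1.5 times, other values within 1 SD over libraries) and 0 reversed. Some of the 76 could not move. Percentiles kept their full-list ranks when lists were cut by evidence or length. Every Ythdc1 and Ythdf3 peak had an adjusted p-value under the limit of 0.05, so that limit removed none. Ythdf3 was listed in a single library, so no SD set a limit for its percentile. The median strength percentile of the genes with a peak, averaged over libraries, was 89.9. It was 74.1 with strength by fold and 73.7 with the mean over all peaks of a gene. This median is no summary of a group. In wild type 1 it was the midpoint of Ythdc1 and Ythdf3 (76.4). In wild type 2, knockout 1 and knockout 2 it was Ythdc1 alone (94.0, 94.8 and 94.3). Its SD over libraries, 8.98, came largely from wild type 1. Ythdc1 moved from 94.4 to 85.3 by fold, with region 2 as its best peak by fold in every library. It moved to 74.1 with the mean over its peaks, which takes in region 3 of wild type 1 (28.5) and knockout 1 (6.16). Ythdf3 moved by fold from 58.2 to 6.14, the fold percentile of its single peak. Why fold and p-value ranked these peaks differently was not tested. With each library left out in turn, there were 0 to 1 genes found in wild type alone, 1 being Ythdf3 without wild type 2. Region 2 of Ythdc1 stayed shared by all libraries under each overlap rule and evidence limit tried. At percentiles of 86.5 to 94.8 it could not be removed by the evidence limits, nor split by wider joining. Joining on the same strand alone could not split it either, since all its peaks lay on the plus strand. A reciprocal overlap of 50% could have split it and did not. No paired analysis was possible because the titles of the wild-type libraries give no number and no model was fitted. Depth is unknown here, so missing peaks cannot be told apart from too few reads.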
